A study of Mus musculus with 12 samples.

Results

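The metallothioneins Mt1, Mt2, Mt3 and Mt4, the zinc sensor Mtf1 and the zinc exporter Slc30a1 were examined in the non-polysomal and polysomal RNA of 3T3-L1 cells at the start of adipogenesis. The genes were named with earlier results of these data known, and their probes were then chosen by transcript accession, which gave 6 of the 18217 named genes and 10 of the 41174 non-control probes of the array. Mt1, Mt2 and Mt3 had 1 probe each, Mt4 and Slc30a1 had 2 each and Mtf1 had 3. 3T3-L1 is a mouse embryonic fibroblast line of preadipocytes that turns into adipocytes after a hormone mixture is added. The 4 groups were non-polysomal RNA at 0 h, polysomal RNA at 0 h, non-polysomal RNA at 6 h and polysomal RNA at 6 h, with 3 replicates each on 12 one-colour arrays. The 0 h cells were confluent and had received no hormones, and the 6 h cells had been exposed for 6 h to 0.5 mM isobutylmethylxanthine, 1 µM dexamethasone and 5 µg/ml insulin. The medium changed with them, from newborn to fetal bovine serum, so serum and hormones cannot be told apart. Cell lysates were separated on sucrose gradients in the presence of cycloheximide, which holds ribosomes on the mRNA. The non-polysomal RNA is a pool of gradient fractions 5 to 7, and the polysomal RNA is one of fractions 9 to 11. All groups came from the same line, an in vitro model of preadipocytes.

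Metallothioneins are small, cysteine-rich proteins that bind zinc and copper and buffer the free metal in the cell. MTF-1, the protein of Mtf1, binds zinc through its zinc fingers, moves to the nucleus and activates genes that carry metal response elements in their promoters, among them Mt1, Mt2 and Slc30a1. Slc30a1 encodes ZnT1, the transporter of the plasma membrane that carries zinc out of the cell. Mt1 and Mt2 are expressed in nearly all tissues and are also induced by glucocorticoids such as dexamethasone. Mt3 is known from brain and Mt4 from stratified squamous epithelium.

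MTF-1 acts through metal response elements, so matches to the core of this element in the promoters of the members are printed here before the values. Promoters were taken from RefSeq (build GRCm38.p6) as the 250 bases before and the 50 bases after the transcript start, and all 6 genes had an entry. Each was searched on both strands for the letters TGCACNC or TGCGCNC, where N is any base. The windows below are written along the gene's strand with 8 bases on each side, and capitals mark the core or, where it lies on the opposite strand, its reverse complement.
Mt1, chr8:94179058-94179080: tcccgctgTGCACACtggcgctc
Mt1, chr8:94179083-94179105: gggagctcTGCACTCcgcccgaa
Mt1, chr8:94179101-94179123: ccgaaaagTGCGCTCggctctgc
Mt2, chr8:94172387-94172409: atcgcctcTGCACCCggcccctc
Mt2, chr8:94172482-94172504: agacccttTGCGCTCagctcctt
Mt2, chr8:94172560-94172582: gggagggcGTGTGCAggctctgt
Mt2, chr8:94172614-94172636: ttcgggtcGTGCGCAggcccagg
Mt3, chr8:94152626-94152648: gacagcagTGCACACacacggag
Mt4, chr8:94137105-94137127: actgggccGTGTGCAgggcgtct
Slc30a1, chr1:191906730-191906752: ggggttccGAGTGCAaagcaaag
Slc30a1, chr1:191906803-191906825: tccgggccGAGCGCAgtcgccgc

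Mt2 held 4 matches, Mt1 held 3, Slc30a1 held 2, Mt3 and Mt4 held 1 each, and Mtf1 held 0. The Mt1 matches began 23 bases before and 2 and 20 bases after the transcript start used, chr8:94179089. The annotated Mt1 gene begins further upstream, at 94178883. Each count thus depends on the start that was used, and other starts of the genes were not searched. Of all 32851 promoter windows of this length, 25.7% held at least 1 match, 7.11% at least 2, 1.97% at least 3 and 0.517% at least 4. A match is a run of letters and was not tested for binding. The full palindrome of the glucocorticoid response element was in 0 of the 6 windows and in 0.00913% of all windows, and the windows leave out more distant sequence.

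Signals are given as the log2 of the background-subtracted intensity, after each array was shifted by its spike-ins, which are control RNAs added in proportion to the RNA of a sample. A value thus is an amount relative to the RNA of its pool and not per cell, and a change in the share of a cell type cannot be told apart from a change in RNA per cell. A probe is called dim where the scanner software did not rate it as well above background. Of the 10 probes, 8 were well above background on all 12 arrays. The Mt4 probe A_51_P424275 was well above background only on the 3 arrays of non-polysomal RNA at 6 h, and the Mtf1 probe A_52_P55666 was dim on all 12 arrays. No spot was saturated, and the highest signal of a member was 18.20. The arrays were alike in detection, with 55.7% to 60.8% of probes well above background, and replicates of a group correlated across probes with r of 0.985 to 0.992. Each of the 3 slides held 1 array of every group. The spike-ins of the 6 h polysomal arrays stood apart: the 5 dim transcripts (mean log2 signal 7.82 to 16.80) differed there by -0.83 from the other arrays, and the 5 bright ones (18.29 to 19.07) by only -0.091. The spike-in offset of each array is the mean over both sets, so the scaling moves every comparison with these arrays, and values are also given relative to the median of all probes.

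**Figure D1:**
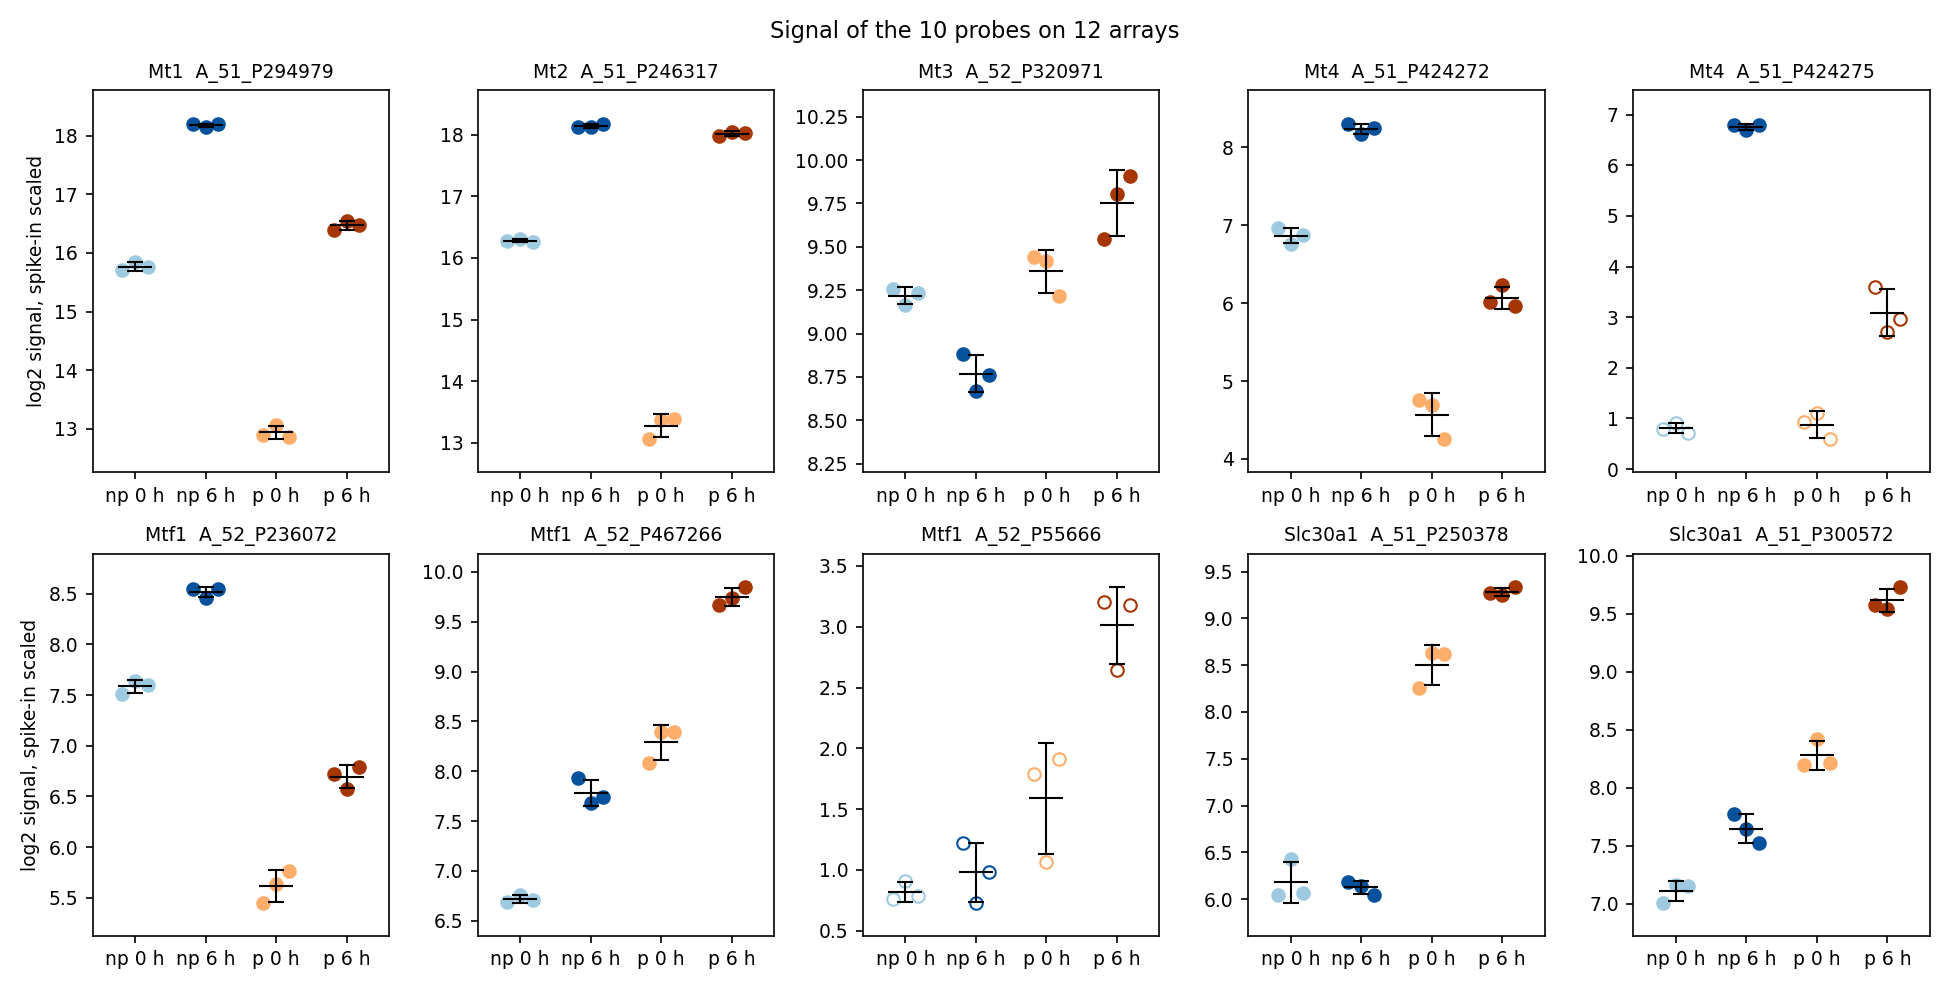
Log2 signal (vertical axis) of the 10 probes in non-polysomal (np) and polysomal (p) RNA at 0 h and 6 h. Each point is 1 array, hollow points are dim, and black bars give the mean and SD of 3 arrays; each panel has its own vertical range. Mt1 and Mt2 were lowest in polysomal RNA at 0 h, and at 6 h only Mt2 had a polysomal signal near its non-polysomal one.

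Mt1 and Mt2, the 2 ubiquitous metallothioneins, rose in both fractions within 6 h, and both rose more in polysomal than in non-polysomal RNA. In polysomal RNA, Mt1 was 11.6-fold and Mt2 26.8-fold higher at 6 h than at 0 h. These log2 changes, 3.53 and 4.74, stood at 3.00 and 4.20 relative to the median of all probes. They were 3.06 and 4.27 with each array scaled to its 75th percentile, and 2.67 and 4.15 with quantile normalization. In non-polysomal RNA the rise was 5.32-fold for Mt1 and 3.63-fold for Mt2. The 6 h signals of Mt1 in non-polysomal RNA and of Mt2 in both fractions lay just under the bright spike-ins (18.29 to 19.07). Whether signals this high still grow in proportion to the RNA was not tested. At 0 h both mRNAs were far lower in polysomal than in non-polysomal RNA, and at 6 h Mt1 was still lower there, while for Mt2 the difference between the fractions did not pass the test.

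The Mt1 probe, A_51_P294979, was printed in 10 spots, whose log2 signals had an SD of 0.017 to 0.091 within an array. In non-polysomal RNA, Mt1 gave 15.70, 15.84 and 15.76 at 0 h and 18.19, 18.14 and 18.20 at 6 h. In polysomal RNA, its signals were 12.89, 13.06 and 12.85 at 0 h and 16.39, 16.54 and 16.48 at 6 h. No pair of groups overlapped, and the order from high to low was non-polysomal at 6 h, polysomal at 6 h, non-polysomal at 0 h and polysomal at 0 h. The change over time was 3.53 on the log2 scale (SE 0.079) in polysomal RNA and 2.41 (SE 0.079) in non-polysomal RNA. By limma with Benjamini-Hochberg adjustment over all probes, adjusted p was 8.2e-10 and 1.4e-08. The polysomal signal was 7.12-fold below the non-polysomal one at 0 h (log2 difference -2.83, adjusted p = 1.6e-09 by limma) and 3.27-fold below it at 6 h (log2 difference -1.71, adjusted p = 1.2e-08 by limma). With each array scaled to its 75th percentile these log2 differences were -3.74 and -3.04.

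The Mt2 probe, A_51_P246317, gave 16.28, 16.30 and 16.27 in non-polysomal RNA at 0 h and 18.12, 18.12 and 18.18 at 6 h. In polysomal RNA, Mt2 had signals of 13.06, 13.37 and 13.39 at 0 h and 17.97, 18.05 and 18.02 at 6 h. The time points did not overlap in either fraction, and the 6 h polysomal arrays lay just under the 6 h non-polysomal ones. The log2 change over time was 4.74 (SE 0.090, adjusted p = 4.1e-10 by limma) in polysomal RNA and 1.86 (SE 0.090, adjusted p = 1.3e-07) in non-polysomal RNA. At 0 h the polysomal signal was 8.05-fold below the non-polysomal one (log2 difference -3.01, adjusted p = 1.9e-09 by limma). At 6 h the log2 difference of Mt2 between the fractions was -0.13 (95% interval -0.33 to 0.076, adjusted p = 0.24 by limma). That last value depends on the scaling, since the difference was -1.46 with each array scaled to its 75th percentile, -0.46 with quantile normalization and -0.50 with the bright spike-ins alone, and it passed the test under each of these.

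**Figure D2:**
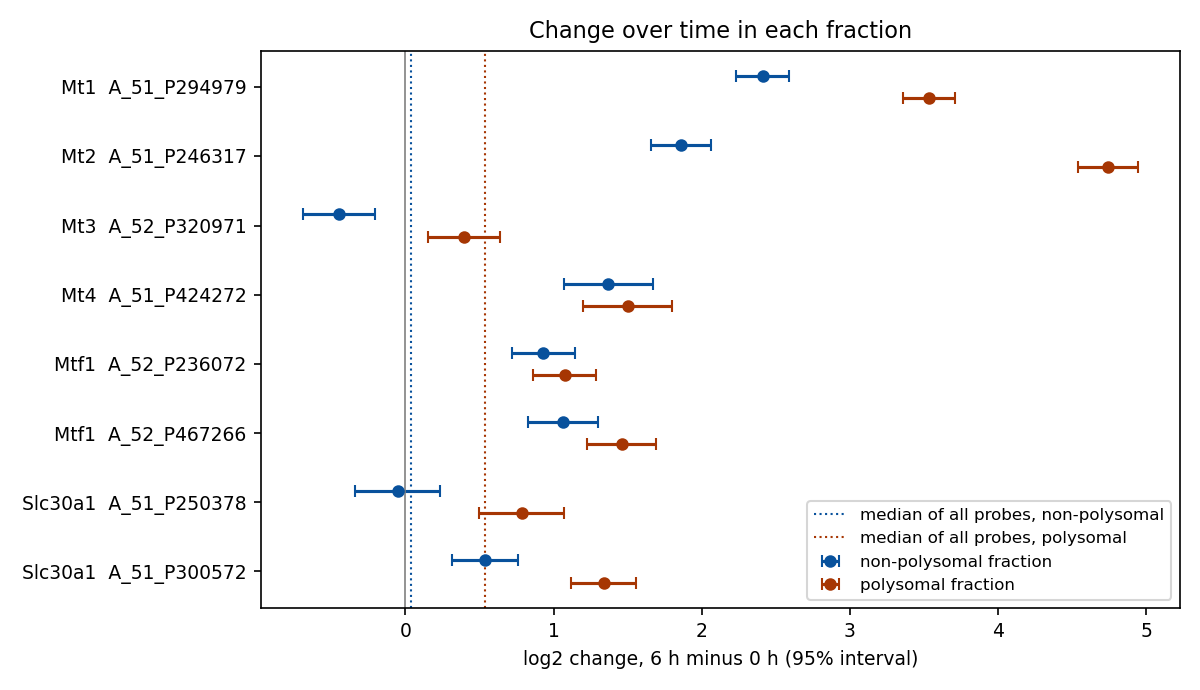
Log2 change from 0 h to 6 h (horizontal axis) of the 8 probes that were well above background on all arrays, in non-polysomal (blue) and polysomal (brown) RNA. Points are the fitted changes, bars their 95% intervals, and dotted lines the medians of all probes, 0.039 in non-polysomal and 0.54 in polysomal RNA. Mt1 and Mt2 lie farthest to the right in both fractions, with Mt2 ahead in polysomal and Mt1 in non-polysomal RNA.

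The M-value is the change over time in polysomal RNA minus that in non-polysomal RNA, the interaction of time and fraction. It was 2.88 for Mt2 (SE 0.13, adjusted p = 1.2e-06 by limma) and 1.12 for Mt1 (SE 0.11, adjusted p = 6.1e-05). Within the 3 slides the M-value of Mt2 was 3.07, 2.86 and 2.72. For Mt1 the values within the slides were 1.00, 1.17 and 1.19. Every slide thus gave the same direction for both genes. Over all probes the median M-value was 0.49, and relative to it Mt2 stood at 2.40 and Mt1 at 0.64. With a line fitted through the spike-ins of each array the median was 1.41, and relative to it Mt2 stood at 1.37 and Mt1 at -0.31, below the median probe. The M-value of Mt2 was above that of 99.6% of the probes tested, and that of Mt1 above 85.0%.

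Mt1 and Mt2 were compared with each other by the change of the Mt2 signal minus the change of the Mt1 signal on the same arrays, a value that no shift of an array can move. From 0 h to 6 h, Mt2 rose by 1.21 more than Mt1 on the log2 scale in polysomal RNA. In non-polysomal RNA, Mt2 minus Mt1 changed by -0.55, that is, Mt1 rose more. The arrays of the 2 time points did not overlap in either fraction, and exact two-sided permutation tests gave p = 0.1 for each, the smallest p that 3 arrays against 3 can give. At 0 h the polysomal minus non-polysomal difference of Mt2 was below that of Mt1 by less than the spread of the arrays (-0.18, exact permutation p = 0.3, arrays overlapping), and at 6 h it was 1.58 higher for Mt2 (exact permutation p = 0.1, arrays not overlapping). With 4 such comparisons, none can pass an adjustment. The 6 h signals of Mt2 in both fractions and of Mt1 in non-polysomal RNA lay between 17.97 and 18.20, just under the bright spike-ins, which differed less between arrays than the dim ones did; the part of this in the Mt1 and Mt2 values was not tested. The sequences of the probes were not used here, and whether the metallothionein probes each read only their own transcript was not tested.

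Mt3, the metallothionein known from brain, was well above background on all arrays and changed little. Its probe, A_52_P320971, gave 9.26, 9.16 and 9.24 in non-polysomal RNA at 0 h and 8.88, 8.67 and 8.76 at 6 h, a fall without overlap of the groups (log2 change -0.45, SE 0.11, adjusted p = 0.0070 by limma). In polysomal RNA, Mt3 signals were 9.44, 9.42 and 9.22 at 0 h and 9.54, 9.81 and 9.91 at 6 h. The polysomal groups did not overlap either, and the log2 change was 0.39 (SE 0.11, adjusted p = 0.011 by limma), but it was -0.081 with the 75th percentile, -0.11 with quantile normalization and -0.0071 with the bright spike-ins alone. The M-value of Mt3 was 0.84 (SE 0.15, adjusted p = 0.0020 by limma), with 0.48, 0.89 and 1.17 in the 3 slides, and stood at 0.36 relative to the median of all probes, or at -0.015 with a line fitted through the spike-ins. This M-value did not pass with the 75th percentile (0.42, adjusted p = 0.071 by limma), quantile normalization (0.41, adjusted p = 0.072) or the bright spike-ins alone (0.39, adjusted p = 0.13), nor, at 0.68, without replicate 3 of all groups (adjusted p = 0.064). Without replicate 3 the polysomal change was 0.25 (adjusted p = 0.19 by limma), and neither change over time of Mt3 passed without replicate 2 or without replicate 3. At 0 h Mt3 differed by 0.14 between the fractions (95% interval -0.10 to 0.38, adjusted p = 0.35 by limma, arrays overlapping). At 6 h its polysomal signal was 0.98 higher on the log2 scale (adjusted p = 1.5e-05 by limma). Both differences turned negative with the 75th percentile (-0.77 and -0.35) and with quantile normalization (-0.78 and -0.37). Of 4 neuron genes, Snap25 and Stmn2 were dim on every array, while the best detected probes of Rbfox3 and Syt1 were well above background on 10 and 6 arrays, and the summed signal of the list was 41.3 to 82.6 in non-polysomal and 25.8 to 40.5 in polysomal RNA at 0 h, and 35.1 to 96.1 and 53.0 to 151 at 6 h. The part of other cells in the Mt3 signal was not tested.

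Mt4, the metallothionein of stratified epithelium, rose in both fractions with probe A_51_P424272 but gave low signals. The other Mt4 probe was dim in polysomal RNA at both times. Its probe A_51_P424272 gave 6.96, 6.76 and 6.88 in non-polysomal RNA at 0 h and 8.30, 8.17 and 8.24 at 6 h. In polysomal RNA this Mt4 probe gave 4.76, 4.69 and 4.26 at 0 h and 6.01, 6.23 and 5.97 at 6 h. Its time points did not overlap in either fraction, and every polysomal array lay below every non-polysomal one of the same time. The log2 change of this Mt4 probe was 1.37 (SE 0.13, adjusted p = 1.5e-05 by limma) in non-polysomal and 1.50 (SE 0.13, adjusted p = 5.3e-06) in polysomal RNA. The polysomal change stood at 0.96 relative to the median of all probes. The M-value of this probe, 0.13, did not pass the test (95% interval -0.30 to 0.55, adjusted p = 0.61 by limma) and had the opposite sign, at -0.30, with the 75th percentile. The polysomal signal was 4.92-fold below the non-polysomal one at 0 h and 4.50-fold below it at 6 h.

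The other Mt4 probe, A_51_P424275, has only a bound in the groups where it was dim. Its non-polysomal signals at 6 h were 6.80, 6.69 and 6.79, at least 14.2-fold above 0 h and at least 9.06-fold above the polysomal signals at 6 h. A bound is the mean of the bright group over the mean of the lowest signals that the software still rated as well above background on the dim arrays, or of the probe itself where that was higher. The adjusted p by limma was 2.0e-08 for the first comparison and 6.3e-08 for the second. These belong to the fit, which used the signals of the dim arrays as they were, and do not test the bounds. With normexp of all spots the first did not pass (adjusted p = 0.86 by limma), and the second turned to 0.94 on the log2 scale. In the main fit both Mt4 probes gave higher non-polysomal signals at 6 h than at 0 h, and at 6 h lower polysomal than non-polysomal ones. They differed in non-polysomal RNA at 0 h, where the mean of A_51_P424272 was 6.87 and A_51_P424275 was dim. Which of them follows the Mt4 mRNA cannot be told from these values. Of 5 genes of stratified epithelium, the keratins Krt5 and Krt14 were well above background on all 12 arrays, while Cdh1 and Epcam were dim on every array. The summed signal of that list was 141 to 156 in non-polysomal and 75.9 to 113 in polysomal RNA at 0 h. At 6 h it was 127 to 153 and 176 to 192. Its part in the Mt4 signals was not tested.

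Mtf1, which encodes the zinc-sensing transcription factor, rose over time in both fractions with both probes that were above background, whereas these probes went opposite ways between the fractions. Mtf1 probe A_52_P236072 gave 7.52, 7.64 and 7.60 in non-polysomal RNA at 0 h and 8.55, 8.46 and 8.54 at 6 h. In polysomal RNA it gave 5.45, 5.64 and 5.77 at 0 h and 6.72, 6.57 and 6.79 at 6 h. Mtf1 probe A_52_P467266 gave 6.69, 6.76 and 6.71 in non-polysomal RNA at 0 h and 7.93, 7.68 and 7.74 at 6 h. Its polysomal signals were 8.08, 8.39 and 8.39 at 0 h and 9.67, 9.74 and 9.85 at 6 h. For both Mtf1 probes the 6 h arrays lay above the 0 h arrays of the same fraction without overlap. In polysomal RNA the log2 changes of Mtf1 were 1.08 (adjusted p = 4.7e-06 by limma) and 1.46 (adjusted p = 9.8e-07), a 2.11-fold and a 2.75-fold rise. These changes stood at 0.54 and 0.92 relative to the median of all probes, and were 0.60 and 0.99 with the 75th percentile. In non-polysomal RNA the log2 changes of Mtf1 were 0.93 (adjusted p = 2.0e-05 by limma) and 1.06 (adjusted p = 1.5e-05).

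Against the non-polysomal signal, the polysomal signal of Mtf1 was 3.90-fold lower at 0 h with A_52_P236072 (adjusted p = 2.5e-08 by limma) and 2.97-fold higher with A_52_P467266 (adjusted p = 2.7e-07). At 6 h it was 3.53-fold lower with the first and 3.91-fold higher with the second. With the 75th percentile the log2 differences of the first and second probe were -2.87 and 0.66 at 0 h and -3.15 and 0.63 at 6 h. With normexp background correction of all spots only the 6 h difference of the second probe passed the test. Both probes carry the same transcript accession, their positions in it were not used here, and which of them follows the Mtf1 mRNA cannot be told from these values. Neither M-value passed the test: it was 0.14 (95% interval -0.16 to 0.44, adjusted p = 0.40 by limma) and 0.40 (95% interval 0.067 to 0.73, adjusted p = 0.060). With the 75th percentile these were -0.28 and -0.028. The second passed under 7 of 26 other settings, such as leaving out dim probes (adjusted p = 0.030 by limma for the same 0.40), and both passed with a line fitted through the spike-ins (0.92 and 0.97). The third Mtf1 probe was dim in every group and gives no level.

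Slc30a1, the gene of the zinc exporter ZnT1, rose in polysomal RNA and was higher in polysomal than in non-polysomal RNA at both times with both probes. Slc30a1 probe A_51_P300572 gave 7.01, 7.16 and 7.15 in non-polysomal RNA at 0 h and 7.77, 7.64 and 7.52 at 6 h. Its polysomal signals were 8.20, 8.42 and 8.21 at 0 h and 9.57, 9.54 and 9.73 at 6 h. None of its groups overlapped. Slc30a1 probe A_51_P250378 gave 6.04, 6.43 and 6.07 in non-polysomal RNA at 0 h and 6.18, 6.15 and 6.05 at 6 h, with overlap. In polysomal RNA this probe gave 8.26, 8.63 and 8.62 at 0 h and 9.27, 9.25 and 9.33 at 6 h, without overlap.

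The polysomal rise of Slc30a1 was 2.53-fold with A_51_P300572 (log2 change 1.34, adjusted p = 1.2e-06 by limma) and 1.72-fold with A_51_P250378 (log2 change 0.78, adjusted p = 0.00045). Relative to the median of all probes these log2 changes stood at 0.80 and 0.25, or at 0.41 and -0.13 with a line fitted through the spike-ins. In non-polysomal RNA the first probe rose by 0.54 (adjusted p = 0.0012 by limma), while the second had a log2 change of -0.053 that did not pass (95% interval -0.34 to 0.23, adjusted p = 0.81). That value was 0.071 without replicate 2 of the 0 h non-polysomal arrays. The M-values of Slc30a1 were 0.80 (SE 0.14, adjusted p = 0.0015 by limma) and 0.84 (SE 0.18, adjusted p = 0.0052). Within the slides they were 0.61, 0.64 and 1.15 for the first probe and 0.87, 0.91 and 0.73 for the second. Relative to the median of all probes they stood at 0.31 and 0.35, or at -0.024 and 0.052 with a line fitted through the spike-ins. With the bright spike-ins alone they were 0.35 (adjusted p = 0.22 by limma) and 0.38 (adjusted p = 0.28), and without replicate 3 of all groups adjusted p was 0.065 for each. The second probe also missed the limit with quantile normalization (0.33, adjusted p = 0.092), and its polysomal rise did with the bright spike-ins (0.38, adjusted p = 0.067). The polysomal signal was 2.25-fold above the non-polysomal one at 0 h and 3.92-fold above it at 6 h with the first probe, and 5.00-fold and 8.93-fold with the second. With the 75th percentile these were 1.20-fold and 1.55-fold for the first probe and 2.66-fold and 3.54-fold for the second, and with normexp background correction of all spots the first probe's difference at 0 h did not pass (0.18, adjusted p = 0.79 by limma). These differences of Slc30a1 kept their direction under all 26 other settings tried. The differences of Mt1, which was lower in polysomal RNA at both times, did so too, and those of Mt4 probe A_51_P424272 did with 1 exception, the 6 h value with normexp of all spots.

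Over the 10 probes, 10 passed the test (adjusted p below 0.05 by limma) with a higher polysomal signal at 6 h than at 0 h, where 50.7% of all probes did, and 8 were also beyond a 2-fold rise, where 19.2% of all probes were. Both counts include the 2 probes that were dim on all polysomal arrays, whose difference is not a measured change. Of the 8 probes above background on all arrays, 8 passed and 6 were beyond 2-fold. Of all probes beyond 2-fold in this comparison, 79.3% were higher at 6 h, but 47.6% with the 75th percentile. In non-polysomal RNA, 7 probes passed upwards, against 20.6% of all probes, and 1, that of Mt3, passed downwards, against 19.6%. Beyond 2-fold, 5 rose, against 8.12% of all probes, and 0 fell, against 8.11%. Between the fractions at 0 h, 4 probes passed as higher in polysomal RNA, against 37.0% of all probes, and 4 as lower, against 15.0%. Beyond 2-fold these were 3, against 27.3%, and 4, against 9.83%. At 6 h, 5 passed as higher, against 59.9%, and 4 as lower, against 9.99%. Beyond 2-fold these were 4, against 37.3%, and 4, against 6.42%. Over the 8 probes above background on all arrays, 3 were beyond 2-fold higher and 4 lower at 0 h, and 3 and 3 at 6 h. The shares of all probes turn with the scaling: of the probes beyond 2-fold, 73.5% were higher in polysomal RNA at 0 h and 85.3% at 6 h, but 29.0% and 34.3% with the 75th percentile.

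For the M-value, 6 of the 10 probes passed upwards, against 32.0% of all probes, and 1 passed downwards, against 4.01%. Past an M-value of 1 there were 3 probes, those of Mt1 and Mt2 and the dim probe of Mtf1, against 12.1% of all probes. The dim probe of Mt4 was the 1 probe below -1, against 1.32%. Of the 8 probes above background on all arrays, 5 passed upwards and 0 downwards, and 2 were above 1. Among all probes called for the M-value, 90.1% were higher, a share that was 51.8% with the 75th percentile, 44.6% with quantile normalization and 48.4% with the bright spike-ins alone. The median M-value of all probes was 0.061, -0.00075 and 0.032 under these settings.

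**Figure D3:**
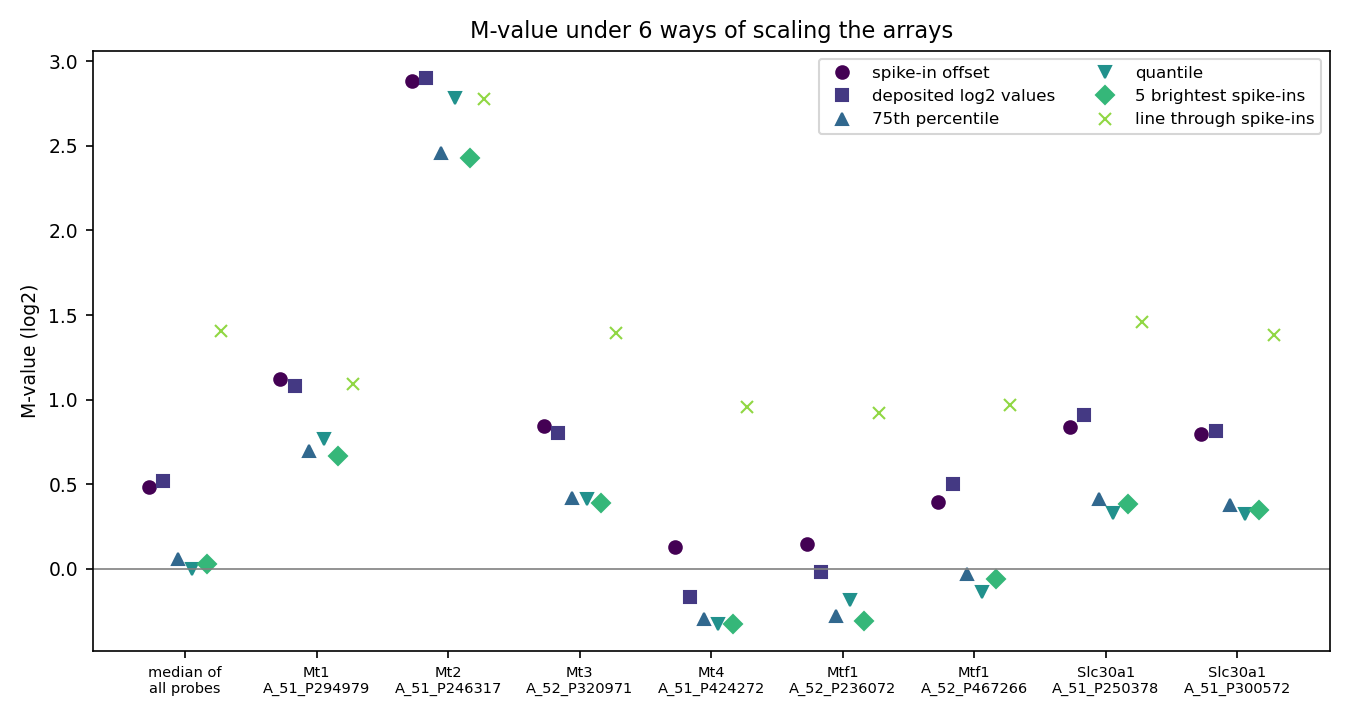
M-value (vertical axis, log2) of the median of all probes and of the 8 probes above background on all arrays, with the arrays scaled in 6 ways. Each marker is 1 scaling; Mt2 stayed between 2.43 and 2.90, while the probes of Mt4 and Mtf1 lay on both sides of 0.

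The genes whose signals followed Mt1 and Mt2 most closely over the 12 arrays were found by Pearson correlation among 16756 probes of named genes that were well above background on every array. For Mt1 they were Slc25a47, a mitochondrial carrier (r = 0.999), Rxylt1, Ercc8, Eif1 and Txndc11 (r = 0.998 each). For Mt2 they were Eva1b, Kctd15, Rpl34, Rps2 and Orai2 (r = 0.996 to 0.998). Rpl34 and Rps2 encode ribosomal proteins, Eif1 encodes a translation initiation factor, and Orai2 a calcium channel subunit. The 12 arrays fall into 4 groups, so such an r describes the order and spacing of the 4 group means. The sizes differed: in polysomal RNA the 5 genes like Mt2 had log2 changes of 1.97 (Eva1b) to 2.22 (Orai2), against 4.74 for Mt2, and the M-value of Rps2 was 1.46.

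Other genes of metal handling were described by lists of zinc exporters, zinc importers, copper transport, and NRF2 and metal stress genes. Of the other zinc exporters of the SLC30 family, 8 genes with 11 probes were on the array, and 3 of these probes were dim on every array. In polysomal RNA 9 of the 11 passed upwards and 2 downwards, against 50.7% and 11.7% of all probes, with a median log2 change of 1.58 where that of all probes was 0.54. The 9 include the 3 dim probes, whose difference is not a measured change. With dim probes left out, 6 passed upwards and 2 downwards. With quantile normalization of all 11 the counts were 6 and 2. In non-polysomal RNA 6 passed upwards and 1 downwards, against 20.6% and 19.6% of all probes, with a median of 0.96 where that of all probes was 0.039. Slc30a9 rose most, by 2.32 in polysomal and 1.90 in non-polysomal RNA with one probe, and by 1.64 and 1.90 with the other. Slc30a7 and Slc30a5, transporters of the secretory pathway, rose by 1.70 and 1.68 in polysomal RNA. Slc30a4 fell in both fractions, with log2 changes of -0.44 and -0.94, and Slc30a3, known from synaptic vesicles, changed by -0.55 in polysomal RNA. For the M-value of the exporters, 5 probes passed upwards and 1 downwards, against 32.0% and 4.01% of all probes. These counts were 4 and 1 with dim probes left out, and 1 and 3 with the 75th percentile.

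Of the zinc importers of the SLC39 family, 14 genes with 17 probes were measured, 2 probes being dim on every array. In polysomal RNA 11 passed upwards and 1 downwards (median 0.93), against 50.7% and 11.7% of all probes, and with quantile normalization 8 and 5. In non-polysomal RNA 7 and 2 passed (median 0.20), against 20.6% and 19.6% of all probes. Slc39a14, which encodes ZIP14, a carrier of zinc, iron and manganese, rose most, by 3.86 and 3.62 with its 2 probes in polysomal RNA and by 3.23 with each in non-polysomal RNA. Slc39a9 rose by 1.81 and 1.44. Slc39a8, the closest relative of Slc39a14, fell by 0.38 in polysomal (adjusted p = 0.040 by limma) and 0.63 in non-polysomal RNA, where Slc39a3 fell by 0.95. Over the importers' M-values, 8 passed upwards and 0 downwards, against 32.0% and 4.01% of all probes, and with the 75th percentile 4 and 1.

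**Figure D4:**
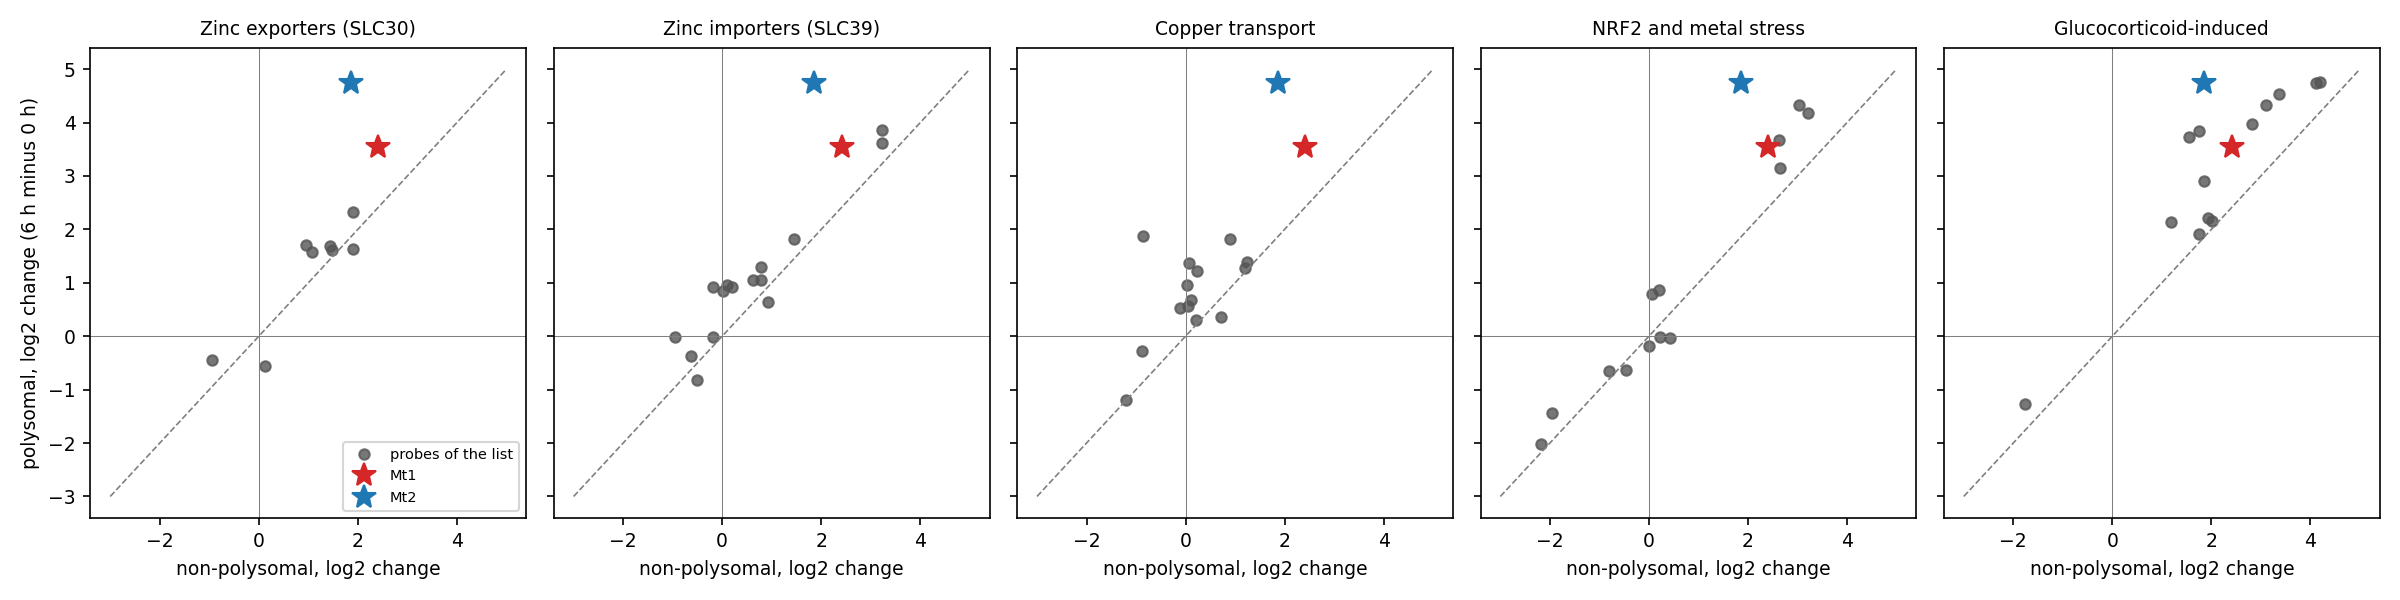
Log2 change from 0 h to 6 h in non-polysomal RNA (horizontal axis) against polysomal RNA (vertical axis) for the probes of 5 gene lists that were above background on at least 1 array. Each grey point is 1 probe, stars mark Mt1 and Mt2 in every panel, and the dashed line marks equal change in both fractions. Probes of the glucocorticoid-induced genes, of Srxn1 and of Slc39a14 reach changes as high as those of Mt1, while most exporters and copper genes lie closer to 0.

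The copper list held transporters and chaperones, with 9 genes and 14 probes. In polysomal RNA 12 passed upwards and 2 downwards (median 0.81), where 50.7% and 11.7% of all probes did, but 5 and 5 with quantile normalization. In non-polysomal RNA 5 and 3 passed (median 0.091), where 20.6% and 19.6% of all probes did. Slc31a1, the copper importer CTR1, rose by 1.82 and 0.90 with one of its 2 probes. The other Slc31a1 probe rose by 1.36 in polysomal RNA, and its non-polysomal change of 0.071 did not pass (adjusted p = 0.62 by limma). The chaperone gene Atox1 rose by 1.39 and 1.23. Slc31a2 changed by -1.19 and -1.20 with one of its 2 probes and by -0.29 and -0.88 with the other. Atp7b, a copper-exporting ATPase, had an M-value of 2.73 (SE 0.35, adjusted p = 0.00025 by limma), rising by 1.88 in polysomal and changing by -0.85 in non-polysomal RNA. Over the list, 9 M-values passed upwards and 0 downwards, against 32.0% and 4.01% of all probes, and with the 75th percentile 6 and 5.

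The NRF2 and metal stress genes, which answer to oxidants and heavy metals, did not move one way. Of 13 probes of 8 genes, 6 passed upwards and 3 downwards in polysomal RNA (median -0.0062), against 50.7% and 11.7% of all probes, and 4 and 5 with quantile normalization. In non-polysomal RNA 5 and 3 passed (median 0.20), against 20.6% and 19.6%. Srxn1, the sulfiredoxin gene, rose most, by 4.33 in polysomal and 3.03 in non-polysomal RNA with probe A_51_P330125. Gclc, which encodes the catalytic subunit of the enzyme that starts glutathione synthesis, rose by 2.64 in non-polysomal RNA. Hmox1, the heme oxygenase gene that cadmium and other metals induce, changed by -2.03 and -2.18. Gclm, the partner of Gclc in glutathione synthesis, changed by -1.44 and -1.95. The M-values of this list passed upwards for 6 probes and downwards for 1, against 32.0% and 4.01% of all probes. These counts became 5 and 3 with the 75th percentile.

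The glucocorticoid-induced genes were the list with the highest medians of the 5. Of 13 probes of 9 genes, 12 passed upwards and 1 downwards in each fraction, where 50.7% and 11.7% of all probes did in polysomal and 20.6% and 19.6% in non-polysomal RNA. The median log2 change was 3.73 in polysomal and 1.94 in non-polysomal RNA. Dusp1, a MAP kinase phosphatase gene, rose by 4.75 and 4.20, and Errfi1 by 4.74 and 4.12. Fkbp5, a cochaperone gene of the glucocorticoid receptor, rose by 4.53 and 3.36 with its highest probe. Its other probes rose by 3.96 and 2.82 (A_52_P337899) and by 2.91 and 1.85 (A_52_P481493). The polysomal change of Mt2, 4.74, lay beside those of Dusp1 and Errfi1, the highest of the list, and its non-polysomal change, 1.86, near the list's median. Pdk4 was the 1 gene of the list that fell, with -1.27 and -1.76. For the M-value, 10 passed upwards and 0 downwards (7 and 1 with the 75th percentile), against 32.0% and 4.01% of all probes. Tsc22d3, which encodes GILZ, had the highest values, 2.18 and 2.10 with its 2 probes. Dexamethasone, isobutylmethylxanthine, insulin and serum were added together, so their parts in any of these changes cannot be told apart.

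The labelled cell type was checked by its markers. All 8 fibroblast and preadipocyte genes, among them Col1a1, Vim and Dlk1, were well above background on the 12 arrays. Of 6 genes of mature adipocytes, Fabp4 gave log2 signals of up to 16.56, Adipoq, Plin1 and Cidec stayed at or below 7.13, and Cfd and Lep were dim on every array. The summed signal of the adipocyte list was 39873 to 41612 in non-polysomal and 83435 to 99191 in polysomal RNA at 0 h, and 37884 to 38882 and 164870 to 172012 at 6 h. Nearly all of this sum came from the probes of Fabp4, so it says little of the other adipocyte genes. The summed signal of the fibroblast list was 278557 to 293775 and 768744 to 832310 at 0 h, and 188417 to 194121 and 1215810 to 1235400 at 6 h. Both sums were thus higher at 6 h in polysomal and lower in non-polysomal RNA, without overlap, and their part in the changes of the metallothioneins was not tested. Of 3 macrophage genes on the array, Csf1r was well above background on all 12 arrays and Ptprc and Adgre1 on at most 1.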

How the data were processed

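RNA of 3T3-L1 cells was measured by the authors on one-colour Agilent mouse arrays, described per the labels as 3 replicates of each time and fraction, and in the methods as biological replicates. The deposited scanner files (Feature Extraction 10.7.1.1) give intensities of each spot, background-subtracted and not normalized between arrays; the authors also deposited log2 values, which are the log2 median pixel intensity plus a constant per array and were used as an alternative. The files were of 45018 spots, 1639 of them controls.

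Spots marked as outliers were left out, log2 intensities of a probe's spots were averaged, and each array was shifted by the mean of 10 spike-in transcripts. Probes were matched to genes by accession through RefSeq (64.8% of probes have a symbol). All 12 arrays entered 1 fit with limma 3.58.1 in R 4.3.3 (lmFit, eBayes; data.table version 1.17.8), with Benjamini-Hochberg adjustment over all probes, 41155 for the M-value. A probe passed at an adjusted p below 0.05 and was called beyond 2-fold, that is, above 1 or below -1 on the log2 scale. The steps were tested on simulated data. Precision is limited by 3 arrays a group.

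Named were all probes of the 6 genes, up to 3 passing list probes in each direction, and the 5 genes most like Mt1 and Mt2. The members and lists were chosen with earlier results of these data known. Alternatives were other scalings, the deposited table, normexp, dim probes left out, outliers kept, a slide block, a prior trend, and arrays left out; after the values were seen, normexp without spots of non-uniform background and offsets from the 5 brightest spike-ins were added. The files used hold no mean pixel signal, so normexp, with an offset of 50, used the median pixel.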

Additional observations from a re-analysis of the deposited data

Results flagged for a closer look

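For 5 of the 8 probes that were well above background on all arrays, the change over time differed between the fractions by the test of the interaction itself (limma, adjusted p below 0.05). The difference, polysomal minus non-polysomal change on the log2 scale, was 1.12 for Mt1, 2.88 for Mt2, 0.84 for Mt3, and 0.84 and 0.80 for the Slc30a1 probes A_51_P250378 and A_51_P300572. Every slide gave a positive value for each of the 5. The median of all probes was 0.49, and 32.0% of all probes passed upwards and 4.01% downwards. With the bright spike-ins alone the values of Mt3 and of both Slc30a1 probes did not pass.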

How the results depend on the processing

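Each result was recomputed under 26 other settings, 15 of which left out arrays, for 42 pairs of probe and comparison. The M-value of Mt2 passed under all 26 (2.43 to 2.97), and that of Mt1 (0.67 to 1.19) under all but normexp of all spots (adjusted p = 0.074). Normexp of all spots fitted a background SD of 705, 702 and 81.7 on 3 arrays, far from the others, and accounted for 20 of the 34 calls lost over all pairs and settings.

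Member probes called for the M-value, polysomal change, non-polysomal change, and fractions at 0 h and 6 h numbered 4, 8, 5, 7 and 8. The M-value count was 2 with the 75th percentile, quantile, the bright spike-ins and the added normexp. It was 7 with a line through the spike-ins and 1 with normexp of all spots. The 2 were Mt2 and the dim Mt4 probe with the 75th percentile, and Mt1 and Mt2 with the added normexp. Of all probes, 4964 were called higher and 543 lower for the M-value. These were 1545 and 1440 with the 75th percentile, 1268 and 1573 with quantile, and 1379 and 1472 with the bright spike-ins. They were 2516 and 75 with the added normexp, 25871 and 61 with the line, and 100 and 0 with normexp of all spots. The polysomal count was 4 with the 75th percentile, the deposited values and the added normexp, 5 with quantile and 2 with normexp of all spots. All probes called there were 7903 higher and 2058 lower, but 3646 and 4014 with the 75th percentile and 3204 and 3843 with quantile. They were 5463 and 946 with the deposited values, 4770 and 674 with the added normexp, and 3301 and 149 with normexp of all spots. The non-polysomal count was 2 with normexp of all spots and 3 with the added normexp. Over all probes, 3343 rose and 3336 fell beyond 2-fold there, against 736 and 669 with the first and 1771 and 1125 with the second. The counts between fractions were 2 and 5 with normexp of all spots. That setting called 3518 of all probes higher and 1561 lower at 0 h, against 11238 and 4044 in the main fit. At 6 h it called 9205 and 671, against 15374 and 2645.

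Signs turned for the M-value of Mt4 A_51_P424272: -0.30 (75th percentile), -0.33 (quantile), -0.16 (deposited values), -0.24 (added normexp), -0.32 (bright spike-ins), and with arrays left out it ranged from -0.028 (without replicate 3 of polysomal 0 h) to 0.24. The M-value of Mtf1 A_52_P236072 became -0.28, -0.19, -0.015, -0.016 and -0.31 in the same order of the first 5, and that of Mtf1 A_52_P467266 -0.028 (75th percentile), -0.14 (quantile) and -0.057 (bright spike-ins). The Mt3 probe A_52_P320971 gave -0.081, -0.11 and -0.0071 for the polysomal change with the 75th percentile, quantile and bright spike-ins, -0.77 and -0.78 between fractions at 0 h and -0.35 and -0.37 at 6 h with the first 2, and -0.11 at 0 h with normexp of all spots. That correction also gave -0.062 for Mtf1 A_52_P467266 and -0.36 for Slc30a1 A_51_P300572 in non-polysomal RNA, and 0.10 and 0.94 for Mt4 A_51_P424272 and A_51_P424275 between fractions at 6 h. The non-polysomal change of Slc30a1 A_51_P250378 was -0.15 to 0.071 with arrays left out, the highest without replicate 2 of non-polysomal 0 h, and 0.061 without replicate 2 of all groups. The causes were not tested.

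The replicate number is the slide. Deviations of the 18 same-numbered pairs of arrays correlated with r of -0.10 to 0.42, only 4 over 0.1, where pairs of other numbers gave -0.38 to 0.21. Of the 12 arrays, 8 correlated best with their own number. These values do not settle whether the numbers pair the samples, and the main fit used no block. With the replicate block the 5 counts were 4, 8, 5, 7 and 8, and 0 calls of member probes changed. The dim probes limit what can be said of Mtf1 A_52_P55666 and Mt4 A_51_P424275.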
